A study of Mus musculus with 4 samples.

Results

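Aminoacyl-tRNA synthetases, the enzymes that load each tRNA with its amino acid, were followed as a family of 37 genes in hematopoietic stem cells of NHD13 and wild-type (WT) mice. The members were chosen by gene symbol from 24016 symbols in the count tables, and where a gene had several transcripts the most counted one over all libraries stood for it. A symbol ending in ars2 was taken as a mitochondrial enzyme, which gave 16 mitochondrial and 21 cytosolic members. Mars2, the mitochondrial methionyl-tRNA synthetase gene, was singled out with its difference between the groups already known, so its values are given as a description, without a p-value.

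The NHD13 group had 2 libraries from NHD13+ transgenic C57BL/6 mice and the WT group had 2 from wild-type C57BL/6 mice, all at 4 months of age. NHD13 mice carry a fusion of NUP98 with HOXD13, driven in blood cells by Vav regulatory elements, and serve as a model of myelodysplastic syndrome. RNA came from bone marrow cells sorted as lineage-negative, Sca-1+, c-Kit+, CD150+, CD34- and Flt3-. Separate animals are not named for the libraries in the labels, so that each SD and p-value covers only how far these 4 libraries lie apart, which may be technical.

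The libraries held 35025974 and 48423689 counts in NHD13 and 42664018 and 37070939 in WT, at 1 transcript per gene. Stem cell genes were present in every library. Kit stood at 991 and 1122 CPM (counts scaled to a common library total) in NHD13 and 1129.9 and 1271 in WT. The cells were sorted as c-Kit+, so the presence of Kit does not test their identity. Over all 14853 genes tested, edgeR called 2.07 percent higher and 2.22 percent lower at an adjusted p under 0.05, the share beside the marker counts here. Of 13 stem cell marker genes 4 were called lower in NHD13, and the summed level of the list was 3413 and 3738 CPM against 5347 and 5608 CPM in WT. The genes of this list did not move together. Mllt3 fell from 509 and 548 CPM (WT libraries) to 154 and 132 CPM (NHD13 libraries), and Hlf and Ly6a were also lower in NHD13. Gata2 went the other way, from 223 and 230 CPM (WT) up to 399 and 292 CPM (NHD13). Procr, Mecom and Slamf1 overlapped between the groups. Of 14 granulocyte and monocyte markers 4 were called higher, and the sum of the list was 4244 CPM in NHD13 library 1 and 1359 in library 2, against 688 and 603 CPM in WT. This list was uneven too. Mpo was higher in both NHD13 libraries (709 and 587 CPM, against 49.0 and 39.2 in WT). Camp was far above WT only in NHD13 library 1 (258 and 26.7 CPM, against 26.5 and 21.4 in WT). Ltf and Lcn2 were also high only in that library and overlapped between the groups. Prtn3 was lower in both NHD13 libraries (229 and 165 CPM, against 270 and 273 in WT). Lymphoid markers summed to 248 and 313 CPM in NHD13, against 95.5 and 101 CPM in WT, with 2 of 11 tested called higher. The make-up of that sum differed between the NHD13 libraries. Library 1 held it mostly in Nkg7 (153 CPM), with Cd3e at 0.728 and Gzmb at 0.873 CPM. Library 2 had Nkg7 at 82.2, Cd3e at 36.3 and Gzmb at 30.3 CPM. Nkg7 lay above both WT libraries in each NHD13 library, and Cd79b overlapped between the groups. Megakaryocyte markers summed to 457 and 626 CPM in NHD13, against 1674 and 1889 CPM in WT, with 2 of 7 tested called lower. Mmrn1 alone held 74.0 and 158 CPM of that sum in NHD13, against 1227 and 1489 CPM in WT, and without it the sums were 383 and 468 CPM in NHD13 and 447 and 399.9 CPM in WT, which overlap. Mast cell and basophil markers summed to 139 and 118 CPM in NHD13, against 26.1 and 8.05 CPM in WT, with 1 of 5 tested called, Fcer1a, which was lower. That sum lay mostly in Ms4a2 in NHD13 library 1 (111 CPM) and in Cpa3 in library 2 (107 CPM), and Cma1 was at 0 throughout. The part of these marker differences in the results on synthetases was not tested. The RNA is from bulk samples, in which fewer cells of a type and less RNA per cell cannot be told apart.

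Each synthetase recognises one amino acid and its tRNAs, and the pool of loaded tRNA feeds the ribosome. Cytosolic translation and mitochondrial translation use separate sets of these enzymes, nearly all encoded by nuclear genes for each compartment. Gars and Kars are exceptions, since each makes both the cytosolic and the mitochondrial form from one gene. Mitochondrial enzymes serve the few proteins of the respiratory chain that are encoded in mitochondrial DNA. Several cytosolic synthetases sit together in a multi-synthetase complex, and many are known targets of ATF4, the transcription factor of the integrated stress response.

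Mars2 was 6.19 times higher in NHD13 cells, the highest difference among the members. Mars2 loads methionine onto mitochondrial tRNA, including the tRNA that starts each mitochondrial protein. It had 4527 and 6308 counts in NHD13, against 873 and 804 counts in WT, or 132 and 129 CPM in NHD13 and 20.1 and 22.0 CPM in WT. The libraries of each group lay close together and the groups were far apart. The means were 130.2 ± 2.13 CPM in NHD13 and 21.0 ± 1.37 CPM in WT (SD, n = 2 each), with a log2 fold change of 2.63 ± 0.10 (SE). That stood at the 97.8th percentile of the log2 fold changes of all genes tested. RefSeq gives Mars2 a length of 2882 bases and GENCODE M21 a longer 3' end and 11294 bases. The sources used here do not say whether reads past the RefSeq end or from the opposite strand were counted.

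The 250 bases before the RefSeq start of Mars2 are shown because it is the member that stood apart. They lie at chr1:55236927-55237176 on the plus strand of GRCm38.p6, a later build than the mm9 of the counts, and hold 61.6 percent G or C and 23 CG steps.
Mars2: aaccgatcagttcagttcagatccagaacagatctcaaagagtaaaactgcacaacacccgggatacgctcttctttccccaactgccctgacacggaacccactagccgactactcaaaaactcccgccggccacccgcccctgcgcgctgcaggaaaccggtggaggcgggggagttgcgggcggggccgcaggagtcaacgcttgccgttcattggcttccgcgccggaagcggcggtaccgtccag
No TGATGNAA or CACGTG was found in this window or in the 50 bases after the start; both motifs are described with the promoters of the other members.

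**Figure D1:**
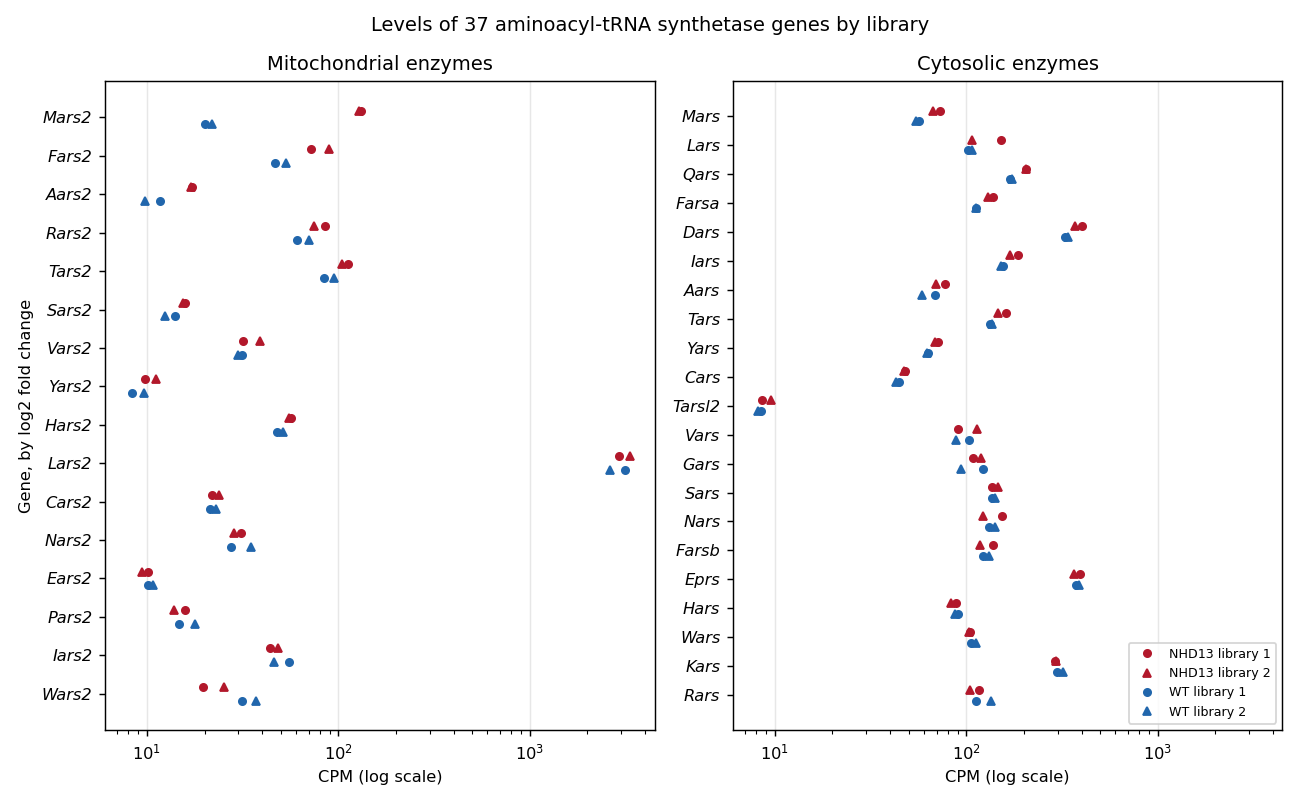
CPM of each of the 37 synthetase genes in each library (log scale), with NHD13 in red and WT in blue, circles for library 1 and triangles for library 2; mitochondrial and cytosolic genes have a panel each and run by log2 fold change, highest at the top. The Mars2 points of NHD13 (132 and 129 CPM) lie far right of those of WT (20.1 and 22.0), while most other rows lie close together.

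All 37 members passed the filter on low counts. By edgeR's quasi-likelihood test over all genes, 0 of the 36 members other than Mars2 were called at an adjusted p under 0.05. Mars2 passed that threshold, which is no independent result since its difference was known when it was singled out; with it 1 of 37, or 2.70 percent, were called, against 4.28 percent of the 14853 genes tested (2.07 percent called higher and 2.22 percent lower). Without WT library 1 or without WT library 2, edgeR called 0 members and 0 genes in all, with 4 and 2 members at an unadjusted p under 0.05. At an unadjusted p under 0.05 there were 7 members with Mars2 (6 without it), 6 higher and 1 lower, or 18.9 percent, against 26.8 percent of all genes. Besides Mars2, DESeq2 called Fars2 and Aars2 as higher and Wars2 as lower, where it called 17.1 percent of all genes (7.89 percent as higher). Limma-voom called none besides Mars2, where it called 4.93 percent of all genes.

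Small differences leaned upward. Of the 37 members 27 had a log2 fold change above 0, with a median of 0.12 against 0.0013 over all genes tested. In 19 members, or 51.4 percent, both NHD13 libraries lay above both WT libraries, against 30.1 percent of all genes. In 4 members, or 10.8 percent, both lay below, against 30.3 percent of all genes, and in 14 the groups overlapped. Without Mars2 the median was still 0.12, and 26 of 36 log2 fold changes were above 0. Members shared their libraries and scaling, so these counts are descriptions and not tests.

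**Figure D2:**
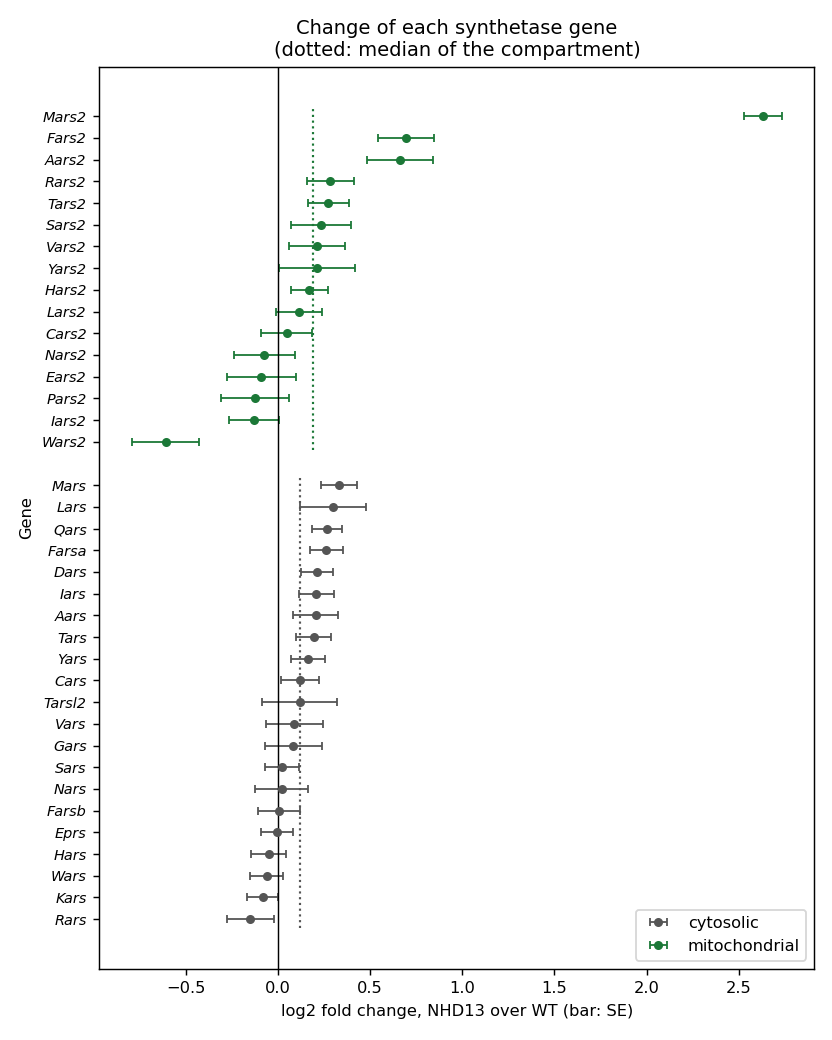
Log2 fold change of NHD13 over WT for each synthetase gene with its SE as a bar; mitochondrial genes are green, cytosolic genes grey, and dotted lines mark the medians of 0.19 and 0.12. Mars2 lies at 2.63, the next gene, Fars2, at 0.70 and the lowest, Wars2, at -0.61.

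Among the mitochondrial enzymes, 11 of 16 log2 fold changes were above 0 and the median was 0.19 (0.17 without Mars2). Fars2, which loads phenylalanine, stood at 72.0 and 89.6 CPM in NHD13, against 46.4 and 53.4 CPM in WT. Both NHD13 libraries lay above both WT libraries, by a log2 fold change of 0.70 ± 0.15 that missed the threshold (edgeR adjusted p = 0.0719; DESeq2 0.00198). With no filter on low counts edgeR did call it (adjusted p = 0.0340). Its other listed transcript had 1720 and 3014 counts in NHD13 and 1392 and 1329 in WT.

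Aars2, the mitochondrial alanyl-tRNA synthetase gene, stood at 17.2 and 16.9 CPM in NHD13, against 11.7 and 9.80 CPM in WT. The groups did not overlap, and the log2 fold change of 0.66 ± 0.18 was not called by edgeR (adjusted p = 0.103; DESeq2 0.0404). Wars2, for tryptophan, differed the other way, at 19.7 and 25.3 CPM in NHD13 against 31.5 and 37.3 CPM in WT. Both NHD13 libraries lay below both WT libraries, with a log2 fold change of -0.61 ± 0.18 (edgeR adjusted p = 0.123; DESeq2 0.0419). These 3 were the farthest from 0 after Mars2.

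The other mitochondrial members lay nearer to 0. Rars2 (0.28 ± 0.13) and Tars2 (0.27 ± 0.11), for arginine and threonine, were higher in both NHD13 libraries without being called, as were Sars2 (0.23 ± 0.16), Vars2 (0.21 ± 0.15), Yars2 (0.21 ± 0.21) and Hars2 (0.17 ± 0.10), all log2 fold changes. Cars2 had 0.05 ± 0.14. Below 0 lay Nars2 (-0.07 ± 0.16), Ears2 (-0.09 ± 0.19), Pars2 (-0.12 ± 0.18) and Iars2 (-0.13 ± 0.13), of which Ears2 alone was lower in both NHD13 libraries. Iars2 was at 44.1 and 48.6 CPM in NHD13 and 55.1 and 46.3 in WT, and Pars2 at 15.9 and 13.8 CPM in NHD13 and 14.6 and 17.7 in WT, so that both overlapped. The least counted mitochondrial members were Ears2 with 347 to 464 counts and Yars2 with 334 to 547 counts per library.

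Lars2, the mitochondrial leucyl-tRNA synthetase gene, was the most counted member. It had 2926 and 3323 CPM in NHD13, against 3151 and 2617 CPM in WT, and the groups overlapped (log2 fold change 0.12 ± 0.12, adjusted p = 0.601). Per kilobase of the matching GENCODE M21 transcript its level was 751 and 853 CPM in NHD13 and 809 and 672 CPM in WT, where Dars, the next, had 184 and 171 CPM in NHD13 and 151 and 155 CPM in WT. These lengths may differ from those of the RefSeq models behind the counts. The place of Dars rests on its most counted transcript, with 13761 and 18207 counts in NHD13 and 14325 and 12351 in WT. Its other listed transcript had far fewer, 1793 and 2522 in NHD13 and 1942 and 1678 in WT. With Lars2 the family held 0.661 and 0.705 percent of counts in NHD13 and 0.660 and 0.594 percent in WT. Without it the shares were 0.374 and 0.369 percent in NHD13 and 0.339 and 0.336 percent in WT, so that the libraries of a group lay closer together and the groups did not overlap. These shares still include Mars2, singled out for its difference, with 4527 and 6308 counts in NHD13 and 873 and 804 in WT. Part of the gap is therefore its own, and shares without Mars2 were not computed.

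Among the cytosolic enzymes none was called by edgeR or by the other tools. By edgeR 3 of 21 (14.3 percent) had an unadjusted p under 0.05, against 26.8 percent of all genes. The log2 fold changes ran between -0.15 and 0.33. The median was 0.12, and 16 of 21 were above 0. Mars, the cytosolic partner of Mars2, stood at 72.6 and 67.2 CPM in NHD13, against 56.7 and 54.4 CPM in WT. It did not overlap between groups, at 0.33 ± 0.10 (adjusted p = 0.124), the highest among the cytosolic members. Qars, for glutamine, stood at 205 and 206 CPM in NHD13 and 169 and 173 CPM in WT (0.27 ± 0.08, adjusted p = 0.133). Farsa, a subunit of the phenylalanyl enzyme, stood at 138 and 130 CPM in NHD13, against 112 CPM in both WT libraries (0.26 ± 0.09, adjusted p = 0.154).

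Lars, for leucine, was high in 1 NHD13 library, at 151 and 108 CPM in NHD13 against 102 and 108 CPM in WT, and the groups overlapped (0.30 ± 0.18, adjusted p = 0.346). Farsb, which encodes the partner subunit of Farsa, stood at 137 and 118 CPM in NHD13 and 122 and 132 CPM in WT, with a log2 fold change of 0.01 ± 0.12. At the low end, Rars stood at 117 and 105 CPM in NHD13 and 112 and 134 CPM in WT (-0.15 ± 0.13, adjusted p = 0.507). Kars stood at 290.2 and 293 CPM in NHD13, slightly below 299 and 319 CPM in WT (-0.08 ± 0.09, adjusted p = 0.582). Wars, for tryptophan, stood at 105 and 103 CPM in NHD13 and 105 and 112 CPM in WT (-0.06 ± 0.09), a much smaller difference than that of its mitochondrial counterpart.

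The 8 members of the multi-synthetase complex (Lars, Iars, Mars, Qars, Eprs, Rars, Kars and Dars) had a median log2 fold change of 0.21, against 0.09 for the 13 other cytosolic members. Dars, for aspartate, had 0.21 ± 0.09 and Iars, for isoleucine, 0.21 ± 0.09, while Eprs, a fused enzyme for glutamate and proline, had -0.01 ± 0.09. The complex was uneven in NHD13. Its median log2 level around the 4-library mean was 0.14 in the first NHD13 library but 0.0012 in the second, against -0.11 and -0.09 in WT. The 2 structural classes of synthetase, which differ in the fold of their active site, had medians of 0.14 each, with 18 members in each class; Eprs has a domain of each class and was left out.

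Of the remaining cytosolic members, Tars (0.19 ± 0.10), Aars (0.20 ± 0.12), Yars (0.16 ± 0.09), Cars (0.12 ± 0.10) and Tarsl2 (0.12 ± 0.20) lay above WT in both NHD13 libraries without being called. Tarsl2, a second gene for threonine, was the least counted of the cytosolic members, with 294 and 465 counts in NHD13 and 369 and 298 in WT. In Vars (0.09 ± 0.15), Gars (0.08 ± 0.16), Sars (0.02 ± 0.09), Nars (0.02 ± 0.14) and Hars (-0.05 ± 0.09) the groups overlapped. Among these, the WT libraries differed most in Gars, at 122 and 93.5 CPM.

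Each mitochondrial member was then set against the cytosolic gene for the same amino acid, which gave 16 pairs. The ratio of Mars2 to Mars CPM was 1.82 and 1.92 in NHD13, against 0.354 and 0.405 in WT, a difference of 2.30 on the log2 scale. No other pair moved as far. Fars2 over the mean of Farsa and Farsb differed by 0.56, at 0.523 and 0.724 in NHD13 against 0.397 and 0.438 in WT. Wars2 over Wars differed by -0.56, at 0.188 and 0.245 in NHD13 against 0.299 and 0.333 in WT. The groups also lay apart, higher in NHD13, for Aars2 (0.46), Rars2 (0.43), Hars2 (0.22), Sars2 (0.21) and Vars2 (0.12) over their cytosolic genes. They lay apart and lower in NHD13 for Iars2 over Iars (-0.33) and Ears2 over Eprs (-0.08). In 6 of the 16 pairs the groups overlapped. Ratios of other gene pairs were not computed, so no share over all genes stands beside these counts.

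**Figure D3:**
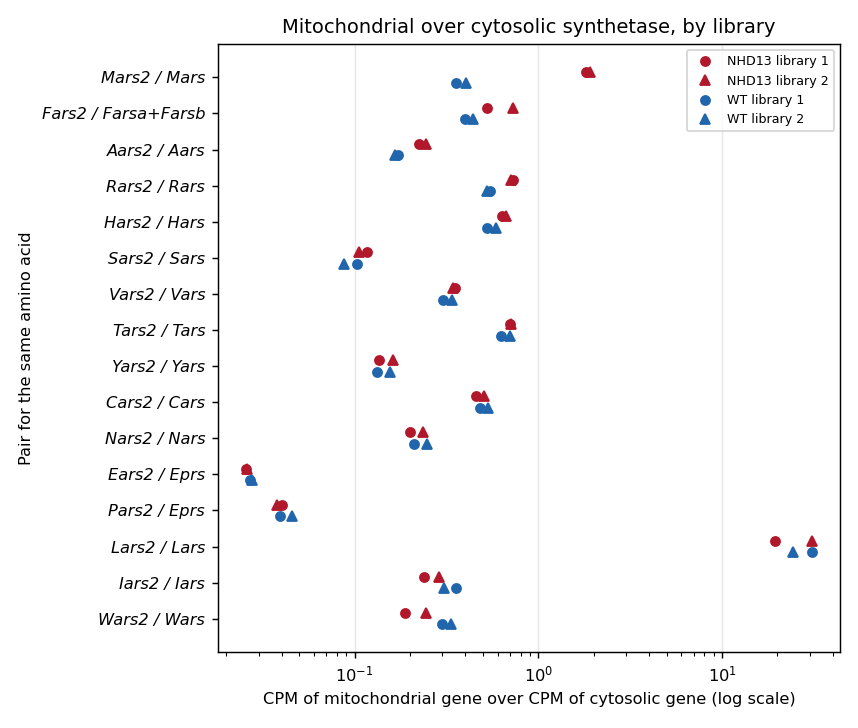
CPM of each mitochondrial synthetase gene divided by that of the cytosolic gene for the same amino acid, by library on a log scale (NHD13 red, WT blue), ordered by the NHD13 minus WT difference of the log2 ratio. The Mars2 to Mars ratio is 1.82 and 1.92 in NHD13 and 0.354 and 0.405 in WT.

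Genes next to Mars2 on chromosome 1 were examined after its value was seen, taking the 3 nearest protein-coding genes on either side in RefSeq order. Rftn2, which encodes a raftlin-family membrane raft protein and is the nearest on one side, rose as well. It had 571 and 952 counts in NHD13, against 40 and 20 in WT, or 16.6 and 19.4 CPM in NHD13 and 0.920 and 0.547 CPM in WT. The groups were wide apart, with a log2 fold change of 4.60 ± 0.34 (edgeR adjusted p = 0.0114), and the call was lost without WT library 1 (adjusted p = 0.112) or WT library 2 (adjusted p = 0.103), fits in which edgeR called 0 genes of the whole table. In GENCODE M21 Rftn2 and Boll lie on the opposite strand from Mars2.

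Boll, a germ cell RNA-binding protein gene and the nearest on the other side, had 42 and 43 counts in NHD13, against 14 and 3 in WT (log2 fold change 2.34 ± 0.79, adjusted p = 0.152). It was higher in both NHD13 libraries on few counts. Mob4, a kinase adaptor gene just beyond Rftn2, stood at 87.3 and 93.7 CPM in NHD13 and 92.1 and 91.5 CPM in WT (-0.02 ± 0.09). Past Mob4 lay the mitochondrial chaperonin gene Hspe1, which was not called (0.70 ± 0.24, adjusted p = 0.151). On the far side of Boll, Plcl1 (-0.83 ± 0.44, adjusted p = 0.303) was not called either, and Hsfy2 had 11 counts in NHD13 library 2 and 0 in the others. Rftn2 was the 1 call among the 5 neighbours tested, beside 4.28 percent of all genes tested.

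**Figure D4:**
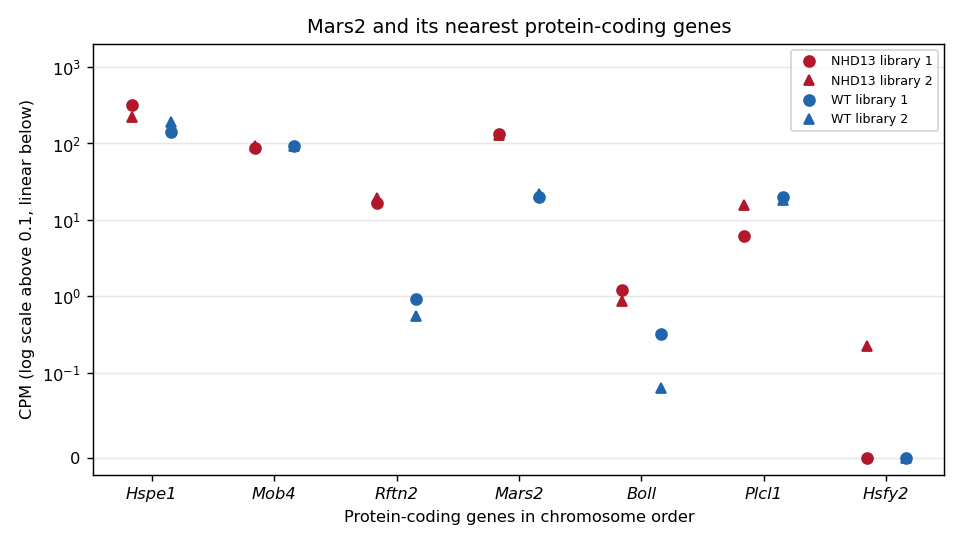
CPM of Mars2 and of the 3 protein-coding genes on either side of it, in chromosome order, by library (NHD13 red, WT blue; the axis is logarithmic above 0.1 and linear below). Mars2 and Rftn2 are far higher in NHD13 (Rftn2 16.6 and 19.4 CPM against 0.920 and 0.547 in WT), while Mob4 is level.

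Promoter windows of 250 bases before and 50 after the start (RefSeq, GRCm38.p6) were found for 28 of the 37 members, 14 of each compartment. They were searched on both strands for TGATGNAA, the core of sites bound by ATF4, and for CACGTG, the E-box bound by MYC and related factors; neither motif contains the other. TGATGNAA was present in 5 of 14 cytosolic members and in 0 of 14 mitochondrial members, against 4.51 percent of all genes with a promoter. CACGTG was in 4 of 14 cytosolic and 1 of 14 mitochondrial members, against 8.09 percent of all genes. The 5 members with TGATGNAA are shown with the match in capitals, which appears as its reverse complement where it lies on the other strand.
Aars: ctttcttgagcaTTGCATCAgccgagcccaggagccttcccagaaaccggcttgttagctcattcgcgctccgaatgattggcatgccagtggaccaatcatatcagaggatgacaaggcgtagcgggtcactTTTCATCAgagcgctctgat
Gars: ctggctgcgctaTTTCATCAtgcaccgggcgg
Iars: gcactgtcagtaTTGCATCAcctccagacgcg
Tars: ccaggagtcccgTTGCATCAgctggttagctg
Yars: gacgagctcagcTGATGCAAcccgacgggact
These stretches lie at chr8:111033718-111033870 (Aars, plus strand), chr6:55037959-55037990 (Gars, plus), chr13:49682125-49682156 (Iars, plus), chr15:11399654-11399685 (Tars, minus) and chr4:129189894-129189925 (Yars, plus). The 5 genes had log2 fold changes between 0.08 and 0.21, with a median of 0.19, and none was called.

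Genes that work with the synthetases were taken as whole lists. Over all genes tested, edgeR called 4.28 percent, with 26.8 percent at p under 0.05 before adjustment. DESeq2 called 17.1 percent of all genes and limma-voom 4.93 percent. Among 14 partner genes edgeR called 0, with 3 (21.4 percent) at p under 0.05 before adjustment. Limma-voom called 0 of them and DESeq2 3, and the median log2 fold change was -0.05. Mtfmt, which formylates the methionine loaded by Mars2 so that it can start a protein, stood at 29.3 and 30.0 CPM in NHD13, against 24.4 and 24.7 CPM in WT. It lay slightly above WT in both libraries (0.27 ± 0.12, adjusted p = 0.231). Dtd1 and Dtd2, which remove D-amino acids from tRNA, had log2 fold changes of -0.53 ± 0.10 (adjusted p = 0.0583) and -0.52 ± 0.12 (adjusted p = 0.0773), and Aarsd1, an editing enzyme for mis-loaded alanine tRNA, had 0.51 ± 0.11 (adjusted p = 0.0744). The complex scaffold genes Aimp1 (-0.13 ± 0.09), Aimp2 (-0.03 ± 0.10) and Eef1e1 (0.23 ± 0.11) lay on both sides of 0.

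In mitochondrial translation, the initiation factor genes Mtif2 (-0.07 ± 0.13) and Mtif3 (-0.01 ± 0.09) and the elongation factor gene Tufm (0.00 ± 0.09) did not stand with Mars2. Of 24 such factors edgeR and limma-voom called 0 and DESeq2 1, and the median was 0.10. At p under 0.05 before adjustment by edgeR there were 2, or 8.33 percent, against 26.8 percent of all genes. Those with the smallest adjusted p were Mrrf, for ribosome recycling (-0.37 ± 0.10, 0.0997), and Gfm1, an elongation factor gene (0.33 ± 0.12, 0.175). Of 77 mitochondrial ribosomal protein genes edgeR, DESeq2 and limma-voom called 0. At an unadjusted p under 0.05 by edgeR there were 4, or 5.19 percent, against 26.8 percent of all genes. Their median was 0.04 and 53 lay above 0, with Mrpl52 at -0.31 ± 0.10 (adjusted p = 0.148) and Mrpl37 at 0.30 ± 0.10 (adjusted p = 0.152).

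The list of ATF4 targets had 1 call by edgeR among 36 tested members, against 4.28 percent of all genes. At p under 0.05 before adjustment 5 were higher and 5 lower, together 27.8 percent, against 26.8 percent of all genes. DESeq2 called 7 and limma-voom 2, Slc1a5 and Trib3. Slc1a5, a glutamine transporter gene, rose to 177 and 166 CPM in NHD13, against 102 and 103 CPM in WT (0.74 ± 0.09, adjusted p = 0.0297), and the call was lost without NHD13 library 1 (adjusted p = 0.0782), without WT library 1 (0.221), without WT library 2 (0.187) and with the replicate number as a block (0.0837). The other 9 genes under that unadjusted p lay on both sides. Trib3, a pseudokinase gene induced by stress, stood at 6.78 and 15.0 CPM in NHD13, against 53.2 and 51.3 CPM in WT (-2.26 ± 0.39, edgeR adjusted p = 0.0509; DESeq2 2.59e-08). Asns, asparagine synthetase, stood at 64.2 and 58.0 CPM in NHD13, against 90.8 and 79.4 CPM in WT (-0.48 ± 0.12, adjusted p = 0.0891), and Ppp1r15a, which restores translation after stress, had -0.63 ± 0.13 (adjusted p = 0.0630). Stc2, a secreted glycoprotein gene, had 1 and 5 counts in NHD13, against 41 and 27 in WT (log2 fold change -3.55 ± 0.79, adjusted p = 0.0753). The higher ones, Mthfd1l (0.41 ± 0.11, adjusted p = 0.0980), Mthfd2 (0.97 ± 0.32, adjusted p = 0.146), Shmt2 (0.39 ± 0.13, adjusted p = 0.136) and Pycr1 (1.02 ± 0.30, adjusted p = 0.123), encode enzymes of folate metabolism and, for Pycr1, proline synthesis. Ddit4, an inhibitor of mTORC1 signalling, had -0.66 ± 0.20 (adjusted p = 0.125). Atf4 itself stood at 191 and 213 CPM in NHD13 and 313 and 224 CPM in WT (-0.41 ± 0.18, adjusted p = 0.229). The list median was -0.04.

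Among 13 genes of the eIF2 kinases, their regulators and eIF2B, edgeR and limma-voom called 0 and DESeq2 2. At p under 0.05 before adjustment by edgeR there were 4, or 30.8 percent, against 26.8 percent of all genes. Gcn1l1, a co-activator of the kinase that senses unloaded tRNA, had 0.52 ± 0.11 (adjusted p = 0.0680), while that kinase's gene, Eif2ak4, had -0.19 ± 0.12 and its inhibitor gene Impact -0.58 ± 0.15 (adjusted p = 0.0998). Of 36 tRNA maturation genes edgeR and limma-voom called 0 and DESeq2 3. At p under 0.05 before adjustment by edgeR there were 4, or 11.1 percent, against 26.8 percent of all genes. The 4 were all lower, among them the tRNA splicing gene Tsen34 (-0.65 ± 0.14, adjusted p = 0.0689), the 3' end nuclease gene Elac1 (-0.50 ± 0.11, adjusted p = 0.0730) and the tRNA ligase gene Rtcb (-0.36 ± 0.08, adjusted p = 0.0787). Of 10 cytosolic elongation and termination genes edgeR and limma-voom called 0 and DESeq2 3. At p under 0.05 before adjustment by edgeR there were 3, or 30.0 percent, against 26.8 percent of all genes. Eef2 (-0.41 ± 0.08, adjusted p = 0.0574) and Eef1a1 (-0.31 ± 0.07, adjusted p = 0.0840) lay below WT in both NHD13 libraries.

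**Figure D5:**
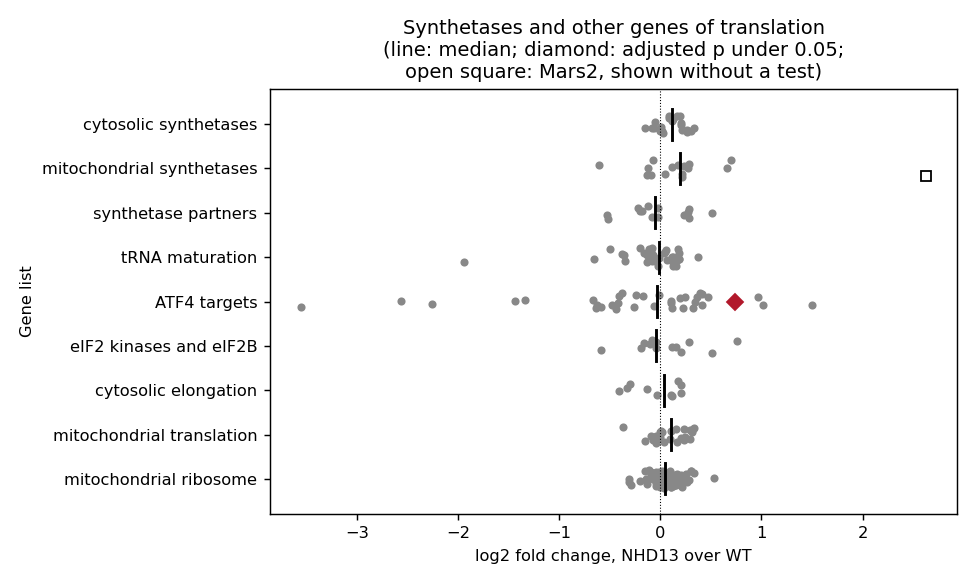
Log2 fold changes of NHD13 over WT for the synthetases of each compartment and for 7 lists of genes of translation and stress; each point is a gene, black lines are list medians and a red diamond marks a gene with an adjusted p under 0.05. The diamond is Slc1a5 at 0.74, and the open square is Mars2 at 2.63, drawn without a test.

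Some members share sequence with other genes. Exact stretches of 75 bases, the read length, of the matching GENCODE M21 transcript occurred in transcripts of another gene in 11 members, with the largest shares in Iars2 (36.3 percent, shared with Rab3gap2), Aars (22.1 percent, Exosc6) and Cars2 (15.3 percent, Naxd). Hars (6.32 percent) and Hars2 (3.71 percent) share with each other. Fars2 shared a small part with Lyrm4. For Mars2, Aars2, Wars2 and Lars2 the share was 0. Only exact matches in GENCODE M21 transcripts were searched, so near matches and other genomic sequence were not checked for any member. The sources used here do not describe how such reads were counted, which makes the values of the 11 members less certain.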

How the data were processed

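The labels' protocols describe Trizol extraction, SMARTer Ultra Low cDNA libraries and paired reads of 75 bases from a HiSeq instrument. The submitters' processing notes name Bowtie 0.12.2 and mouse build mm9. The counting program, its strand setting and its handling of reads with several alignments: not given in the sources used here. The authors deposited counts, whole numbers for 33018 RefSeq transcripts in each library without normalization, which sum to 52531850 to 72655188 counts (35025974 to 48423689 at 1 transcript per gene).

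Counts of 14853 genes left by edgeR's default filter were scaled by TMM and tested with edgeR 4.0.16 (R 4.3.3), using the quasi-likelihood F test in its robust form, NHD13 over WT, with Benjamini-Hochberg adjustment over all genes; called means an adjusted p under 0.05. The SE is the log2 fold change divided by the square root of F. CPM use TMM-scaled totals. DESeq2 1.42.0, limma-voom (limma 3.58.1), other scalings and filters, summed transcripts, a replicate block and leaving out each library were alternatives; a crossed block and leaving out Lars2 were added after seeing the data. Replicate numbers were not taken to pair the libraries: deviations of same-numbered libraries had a correlation of -0.206 over 14853 genes.

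Members and lists were chosen with earlier results of these data known. Named in the text were all members, with library values for the 3 highest and lowest of each compartment and for partners; of each list, the called genes and those with the smallest adjusted p. Lars2, Farsa, Farsb, Dtd2, Rtcb, Asns, Mthfd1l, Mthfd2, Shmt2, Pycr1, Ddit4, Eprs, Dars, Iars, Mtfmt, Aimp1, Aimp2, Eef1e1, Mtif2, Mtif3, Tufm, Atf4, Eif2ak4 and the neighbours of Mars2 were added for their role or after their values were seen.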

Additional observations from a re-analysis of the deposited data

How the results depend on the processing

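Mars2 was the member farthest above 0 in all fits run, with a log2 fold change between 2.56 and 2.70 when 1 library was left out. The number of genes called was 636, and became 1138 with no filter, 1066 with 1 CPM in both libraries of a group, 2606 with DESeq2, 402 with transcripts summed and 0 to 990 with 1 library left out (270 without NHD13 library 1, 990.0 without NHD13 library 2 and 0 without either WT library). Members called were 2 with no filter, 4 with DESeq2 and 0 to 1 with 1 library left out. With the replicate number as a block 107 genes, 1 member (Mars2 at 2.63) and 0 list genes were called; with the numbers crossed, a pairing chosen after seeing the data, 647 genes, 1 member and 1 list gene. Leaving Lars2 out before scaling, also chosen after seeing the data, gave 637 genes and 1 member. With 1 library left out, the cytosolic median ran between 0.090 and 0.16 and the mitochondrial median between 0.087 and 0.20. List genes called were 2 with DESeq2 size factors, 3 with no filter, 5 with the 1 CPM filter, 19 with DESeq2, 2 with limma-voom and 0 to 5 with 1 library left out. Farsb turned to -0.0042 on library totals and -0.0017 with the 1 CPM filter. With 1 library left out, log2 fold changes of uncalled members crossed 0 and ran between -0.013 and 0.12 for Cars2, -0.051 and 0.052 for Eprs, -0.099 and 0.12 for Farsb, -0.096 and 0.28 for Gars, -0.090 and 0.0039 for Hars, -0.012 and 0.25 for Lars2, -0.15 and 0.19 for Nars, -0.24 and 0.11 for Nars2, -0.26 and 0.022 for Pars2, -0.022 and 0.079 for Sars and -0.077 and 0.25 for Vars. The cause of these shifts was not tested. The biological coefficient of variation was 26.9 percent over 14853 genes, with 2 libraries a group.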
